A study of Sus scrofa with 120 samples.

Results

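Primary pig chondrocytes from femoral cartilage that carried PIEZO1 siRNA were compressed in agarose and compared at 3 h with uncompressed constructs that carried the same siRNA. The comparison holds 8 of the 120 libraries of the series, chosen by their titles alone: 4 titled with the PIEZO1-targeting siRNA and supraphysiologic loading, and 4 titled with the same siRNA and the DMSO vehicle. The whole series has 30 groups of 4, in experiments on TRPV4 and on PIEZO1, each harvested at 3 h and 9 h after the onset of stimulation. In the compressed group (siPIEZO1, 3 h), constructs of cells in 2% agarose were squeezed once, unconfined, to 80% deformation at 1.9% per min. In the vehicle group (siPIEZO1, 3 h), constructs stayed free swelling in standard medium with DMSO at 1:1000, and the labels do not say whether compressed constructs also received DMSO. The labels give the speed of the platen in units that conflict, so no speed is given here. They name no animals, ages or sexes. Since nothing states that the replicates were different animals or cultures, every p-value here refers only to variation among libraries, which may be technical. For the gene tests at 3 h that variation was estimated over all 36 libraries of the PIEZO1 experiment at 3 h, not over these 8 alone. Titles speak of transduction, whereas the protocol describes transfection with a lipid reagent. For context, the same contrast is given in cells with a non-targeting siRNA (siNTC, 4 compressed and 4 vehicle libraries at 3 h), in non-transfected cells (NT, 4 and 4 at 3 h), and in siPIEZO1 cells at 9 h (4 and 4).

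PIEZO1 is a mechanically gated cation channel that lets calcium into a cell when its membrane is stretched. Chondrocytes, the cells of articular cartilage, also express PIEZO2, a related channel, and TRPV4, a calcium channel linked to moderate loading and to osmotic change. PIEZO channels are known in chondrocytes for calcium entry at injurious strain, and calcium entry is known to induce early genes such as PTGS2 and the NR4A factors within hours. An siRNA is a short RNA duplex that guides the cleavage of a matching messenger RNA.

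The 3 siRNA strands that define the group are shown because all 8 libraries carry the same mixture, given as 222 nM siPIEZO1a, 278 nM siPIEZO1b and 278 nM siPIEZO1c. They are printed 5′ to 3′ as the labels list them, without capitals because the labels mark no position, and the labels do not say which strand of the duplex each is.
siPIEZO1a: cagcgagaucucgcacuccauc
siPIEZO1b: uacgaccugcugcagcuccug
siPIEZO1c: acccgcuggccaugcaguucuu
They are 22, 21 and 22 nt long, and G or C makes up 59.1%, 61.9% and 59.1% of their bases. Per the labels they target different transcript variants of PIEZO1 (ENSSSCG00000035230), which RefSeq places on chromosome 6 at 914480 to 967113 of Sscrofa11.1.

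PIEZO1 messenger RNA itself did not differ with compression. Its level was 3.64, 6.19, 4.64 and 4.50 CPM, that is counts scaled to a common total for each library, in compressed libraries labelled siPIEZO1, against 4.22, 5.01, 4.68 and 5.18 CPM in vehicle libraries labelled siPIEZO1. The 2 groups overlapped fully (log2 fold change -0.01 ± 0.20 SE, edgeR quasi-likelihood adjusted p = 0.995). The knockdown was not resolved in these libraries either. Under compression, libraries labelled siPIEZO1 averaged 4.74 ± 1.06 CPM and libraries labelled siNTC 5.97 ± 1.14 CPM (SD, n = 4 each), a log2 difference of -0.33 with an interval of -0.72 to 0.06 (2 SE) and an adjusted p of 0.367. In vehicle they averaged 4.77 ± 0.42 and 5.63 ± 1.53 CPM, a log2 difference of -0.24 with an interval of -0.63 to 0.15 and an adjusted p of 0.576. The counts cover the whole gene, so they do not tell transcript variants apart, and protein was not measured. In what follows siPIEZO1 is therefore the label of a library and not a measured loss of the channel. The other channels had no called change: PIEZO2 averaged 7.70 ± 1.22 CPM in compressed and 6.09 ± 0.92 CPM in vehicle libraries (log2 fold change 0.34, adjusted p = 0.425), and TRPV4 376 ± 44.2 and 388 ± 86.1 CPM (log2 fold change -0.05, adjusted p = 0.929).

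Total counts ran from 38917490 to 50705281 in compressed and from 44512854 to 51159305 in vehicle libraries, and 15571 to 16175 and 15556 to 16032 genes had at least 10 counts. Markers of chondrocytes were high: COL2A1, the main collagen of cartilage, was at 3790 to 4500 CPM in compressed and 4050 to 4590 CPM in vehicle libraries, and ACAN, the large proteoglycan, at 1600 to 1790 and 1110 to 1660 CPM. Summed over 10 chondrocyte markers the level was 15700 to 18400 CPM in compressed and 15300 to 21700 CPM in vehicle libraries. The 11 measured fibroblast and synovium markers summed to 777 to 985 and 714 to 859 CPM, and the 12 endothelium and pericyte markers to 395 to 465 and 334 to 410 CPM, nearly all of it CSPG4 and ERG. Leukocyte markers, 13 in the table, summed to 11.9 to 41.4 CPM in compressed and 10.2 to 45.4 CPM in vehicle libraries, most of it CD14, while LYZ was at 0 in all 8 libraries and PTPRC at most 0.157 and 0.0820 CPM. In bulk libraries fewer cells of a type and less RNA per cell cannot be told apart. Of 13 such library measures, 0 had an unadjusted p under 0.05 between the groups (exact two-sided permutation tests, p from 0.0857 to 0.771, adjusted p from 0.712 to 0.771). The smallest p possible with 4 against 4 is 0.0286, so 1 measure alone could not pass after adjustment over 13.

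Some vehicle libraries stood apart. Of 9541 genes with at least 5 CPM in 1 of the 8 libraries, vehicle library 1 lay at least 2-fold below the lowest of the other 7 in 338 and at least 2-fold above their highest in 6, whereas each of the other 7 had 1 to 5 such genes in all. NFKBIA, the inhibitor that holds NF-kB in the cytoplasm, was at 133, 102, 104 and 95.9 CPM in compressed libraries, against 15.9, 103, 112 and 109 CPM in vehicle libraries. FTH1, the heavy chain of ferritin, was at 4820, 4610, 4020 and 3270 CPM in compressed libraries, against 488, 4780, 4580 and 4820 CPM in vehicle libraries. In both genes only vehicle library 1 was low among the 8. In siNTC at 3 h, compressed library 4 was low too, with FTH1 at 1130 CPM and NFKBIA at 29.0 CPM. The other compressed siNTC libraries had 2620 to 3990 CPM of FTH1 and 55.8 to 103 CPM of NFKBIA. Ribosomal protein genes took 11.4% of the counts of siPIEZO1 vehicle library 1, against 7.35 to 8.21% in compressed and 7.19 to 7.99% in the other vehicle libraries of siPIEZO1. Vehicle libraries 2 and 3 both lay at least 2-fold above vehicle libraries 1 and 4 in 58 genes. Of these 58, 41 were called higher and 0 lower in compressed libraries at 9 h, where 1.34% of all genes were called higher, and 40 had a called positive difference of effects, 9 h minus 3 h, which uses these same libraries. SPINT2, an inhibitor of serine proteases, was at 50.0, 54.8, 45.2 and 47.8 CPM in compressed libraries, against 64.9, 116, 123 and 53.3 CPM in vehicle libraries. It was called lower under compression (log2 fold change -0.85), and the call rests on those 2 vehicle libraries, without which the log2 fold change was -0.25 (adjusted p = 0.505). What set these libraries apart, a mixed or mislabelled library included, was not tested.

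**Figure D1:**
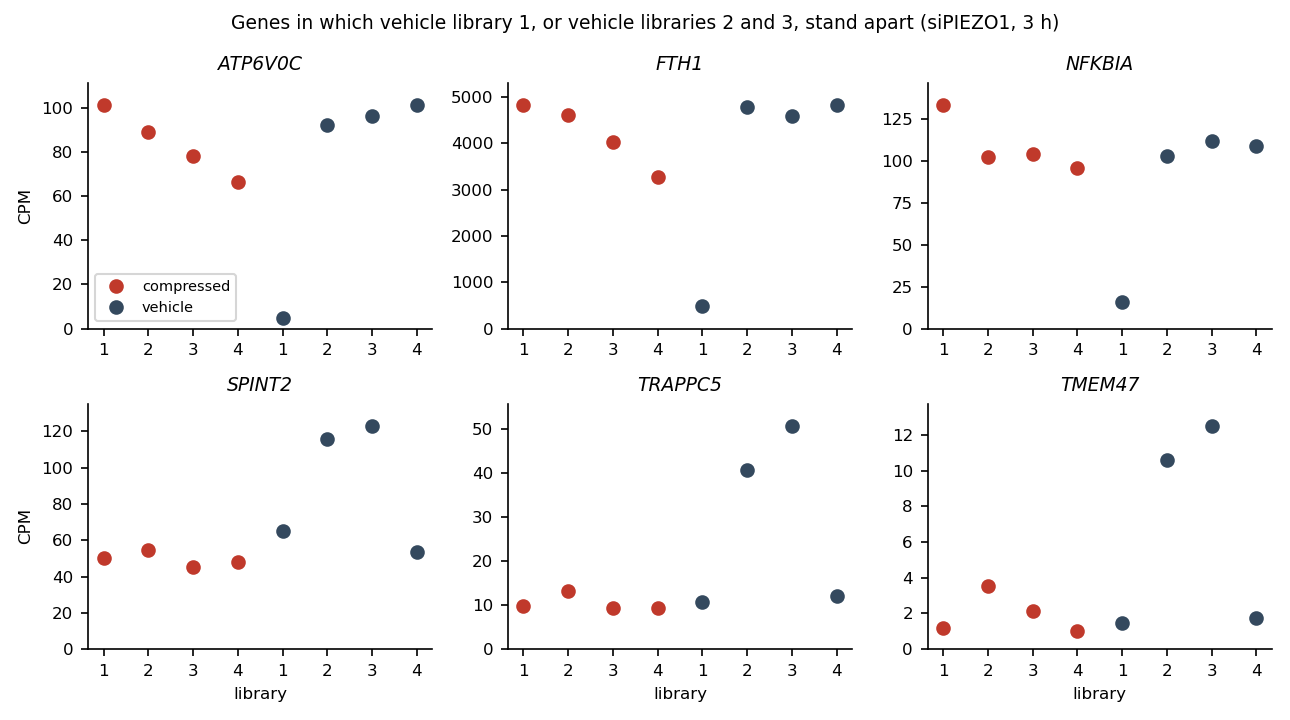
CPM (vertical) of 6 genes in which vehicle libraries of siPIEZO1 at 3 h stood apart, by library, compressed on the left and vehicle on the right. Vehicle library 1 is low for ATP6V0C (4.61 CPM), FTH1 (488 CPM) and NFKBIA (15.9 CPM), and vehicle libraries 2 and 3 are high for SPINT2 (116 and 123 CPM), TRAPPC5 (40.7 and 50.8 CPM) and TMEM47 (10.6 and 12.5 CPM).

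Compression changed a small set of genes in libraries labelled siPIEZO1 at 3 h. Of 18330 genes tested, 110 (0.6%) passed an adjusted p under 0.05, 72 of them higher (0.393%) and 38 lower (0.207%) in compressed libraries. PTGS2, LIF and DUSP4 were among the genes that rose, by 1.7-fold to 2.1-fold, and CHAC1, ID3 and core histone H2AC6 fell to between 0.42 and 0.6 times the vehicle level. The median size of a called change was 0.65 on the log2 scale, and 20 genes changed by at least 2-fold. Of the 110, 99 code for proteins and 8 are long non-coding RNAs. In 98 of the 110 the compressed and vehicle libraries did not overlap, as in 1085 of all genes tested (5.92%). The median log2 fold change of all genes was -0.01, and 2338 genes (12.8%) had an unadjusted p under 0.05.

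The number of calls depended on single libraries. It was 25 without compressed library 3, 28 without compressed library 4, 71 without compressed library 2 and 47 without vehicle library 3, and 74 to 117 without any other. It was 539 without vehicle libraries 2 and 3 together, of which 153 were higher and 386 lower. That fit kept vehicle libraries 1 and 4, and vehicle library 1 itself stood apart, so its calls may rest on library 1. No fit left out vehicle library 1 together with libraries 2 and 3. Of the 110 genes, 71 were still called without vehicle library 1 and 73 without vehicle libraries 2 and 3, and 0 changed direction in either. The call held in all 8 fits that left out 1 library for 19 genes, and all 19 also passed without vehicle libraries 2 and 3. The 12 higher ones among them include ENSSSCG00000003079, APOLD1, PTGS2, TLE3, RHPN2, DUSP4, SLC7A2, TXNRD1, KLF13, SASH1 and ARHGAP31. The 7 lower ones were CHAC1, ID3, H2AC6, H1-3, NUDT16, MMAB and ZBTB8A. Fitted on only the 8 libraries compared, 2 of the 110 genes passed, CHAC1 and 1 other of the 19. The remaining 17 kept their direction there, with adjusted p of 0.139 to 0.324.

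**Figure D2:**
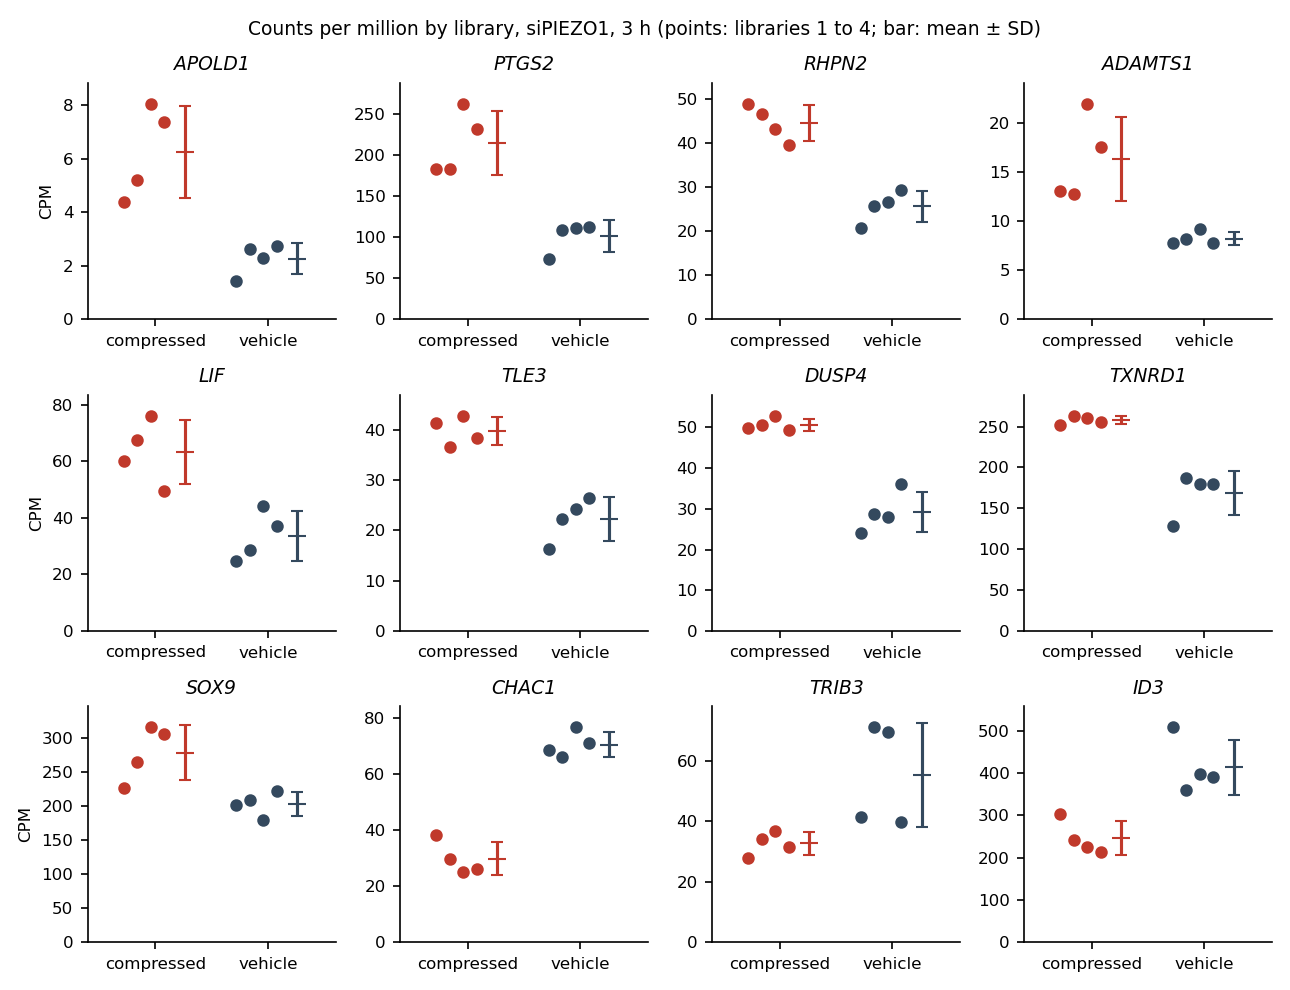
CPM (vertical) of 12 called genes in each of the 4 compressed and 4 vehicle libraries labelled siPIEZO1 at 3 h, with bars for the mean ± SD. In RHPN2 the compressed libraries sit between 39.5 and 48.7 CPM, above all vehicle libraries, and in CHAC1 between 25.2 and 38.3 CPM, below all of them.

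Rises and falls named by size were drawn only from called genes whose groups did not overlap. For those genes, the lack of overlap described below follows from that choice. APOLD1 and PTGS2 were among the largest rises of genes with at least 5 CPM. APOLD1, an early gene best known from endothelial cells, was at 4.37, 5.22, 8.02 and 7.35 CPM in compressed libraries, against 1.43, 2.63, 2.29 and 2.74 CPM in vehicle libraries. All compressed libraries lay above all vehicle libraries, with a log2 fold change of 1.46 ± 0.24 (2.74-fold, adjusted p = 0.00141). PTGS2 encodes cyclooxygenase-2, which makes prostaglandins, and lies on chromosome 9 at 127850164 to 127858866. It was at 183, 183, 262 and 232 CPM in compressed libraries, against 73.1, 109, 112 and 113 CPM in vehicle libraries. The groups were fully apart, with vehicle library 1 lowest (log2 fold change 1.08 ± 0.18, adjusted p = 0.00141).

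The secreted proteins LIF, FGF1, BMP2 and ADAMTS1 were called higher. LIF, a cytokine of the interleukin-6 family, was at 60.3, 67.6, 76.1 and 49.4 CPM in compressed libraries, against 24.7, 28.5, 44.2 and 37.1 CPM in vehicle libraries. The groups did not overlap, but the spread was wide (log2 fold change 0.91 ± 0.22, adjusted p = 0.0394), and the call was lost in 7 of 8 fits that left out 1 library (adjusted p up to 0.183, without compressed library 3). FGF1, a fibroblast growth factor, was at 254, 282, 295 and 279 CPM in compressed libraries, against 161, 191, 236 and 178 CPM in vehicle libraries. Its rise of 0.54 ± 0.11 had an adjusted p of 0.0114, and 0.0582 without compressed library 3. BMP2, a bone morphogenetic protein, was at 23.5, 29.8, 29.7 and 30.4 CPM in compressed libraries, against 20.5, 17.9, 17.9 and 13.8 CPM in vehicle libraries. Its rise of 0.69 ± 0.17 (adjusted p = 0.0378) was lost in 6 of the 8 fits, with an adjusted p of up to 0.155. ADAMTS1, a secreted protease that cleaves proteoglycans, was at 13.1, 12.8, 21.9 and 17.6 CPM in compressed libraries, against 7.77, 8.17, 9.17 and 7.83 CPM in vehicle libraries. Compressed library 3 was highest (log2 fold change 0.99 ± 0.18, adjusted p = 0.004), and without it the adjusted p was 0.0513.

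Of the genes listed as ERK feedback genes, DUSP4, DUSP10 and SPRY2 were called higher. ERK is the kinase at the end of a growth factor cascade, and its dual-specificity phosphatases and Sprouty proteins dampen it. DUSP4 was at 49.8, 50.6, 52.8 and 49.3 CPM in compressed libraries, against 24.1, 28.6, 28.0 and 36 CPM in vehicle libraries. The compressed libraries lay within a narrow range above all vehicle libraries (log2 fold change 0.79 ± 0.15, adjusted p = 0.00607). DUSP10, which acts mainly on the stress kinases p38 and JNK, was at 26.8, 23.8, 25.6 and 23.5 CPM in compressed libraries, against 16.9, 17.1, 17.2 and 15.3 CPM in vehicle libraries (0.58 ± 0.13, adjusted p = 0.0258). SPRY2 was at 42.5, 39.1, 45.0 and 51.1 CPM in compressed libraries, against 37.3, 27.0, 24.6 and 26.0 CPM in vehicle libraries. SPRY2 was near the threshold (0.63 ± 0.16, adjusted p = 0.048), with its vehicle library 1 close to the compressed range. Its call was lost in 7 of the 8 fits (adjusted p up to 0.219, without compressed library 4), and that of DUSP10 in 5 (up to 0.0935, without compressed library 3). Of 17 feedback genes tested, these 3 were higher and 0 lower, where 0.393% of all genes were called higher and 0.207% lower, and the median log2 fold change was 0.40, or 0.19 without vehicle library 1, against -0.01 over all genes.

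The transcriptional regulators TLE3, KLF4 and SOX9 were called higher. TLE3, a corepressor in Wnt and Notch signalling, was at 41.4, 36.7, 42.8 and 38.4 CPM in compressed libraries, against 16.3, 22.3, 24.2 and 26.4 CPM in vehicle libraries (0.84 ± 0.12, adjusted p = 0.000218). KLF4, an early zinc finger factor, was at 91.9, 79.1, 103 and 92.4 CPM in compressed libraries, against 68.8, 69.0, 63.7 and 66.1 CPM in vehicle libraries. Its rise was smaller but free of overlap (0.45 ± 0.10, adjusted p = 0.0298), and was lost in 5 of the 8 fits (up to 0.178, without compressed library 3). SOX9, the master factor of the cartilage programme, was at 227, 264, 315 and 305 CPM in compressed libraries, against 202, 209, 179 and 222 CPM in vehicle libraries. Compressed library 1 lay just above the highest vehicle library (0.45 ± 0.10, adjusted p = 0.0296), and the call was lost in 3 of the 8 fits (up to 0.181, without compressed library 3) and without vehicle libraries 2 and 3 (0.0835). SOX9's main matrix targets did not follow in the test: COL2A1 had a log2 fold change of -0.06 (adjusted p = 0.878) and ACAN 0.19 (adjusted p = 0.521). KLF13 averaged 46.7 CPM in compressed and 29.9 CPM in vehicle libraries, HMGA2, a chromatin architectural protein, 227 and 140 CPM, and RUNX1 61.6 and 43.7 CPM, all called higher.

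TXNRD1, SLC7A2 and HK2, genes of redox balance, amino acid transport and glycolysis, were called higher. TXNRD1, cytosolic thioredoxin reductase and a target of the antioxidant factor NRF2, lies on chromosome 5 at 80170334 to 80213889. It was at 252, 263, 260 and 256 CPM in compressed libraries, against 128, 187, 180 and 180 CPM in vehicle libraries. The compressed libraries lay close together and vehicle library 1 was lowest (0.61 ± 0.10, adjusted p = 0.0015). SLC7A2, a transporter of arginine and lysine, was at 51.5, 43.2, 54.6 and 63.0 CPM in compressed libraries, against 25.6, 31.1, 36 and 33.7 CPM in vehicle libraries (0.75 ± 0.11, adjusted p = 0.000238). HK2, the inducible hexokinase that starts glycolysis, was at 151, 143, 158 and 140 CPM in compressed libraries, against 66.9, 106, 116 and 108 CPM in vehicle libraries. It did not overlap between groups (0.58 ± 0.12, adjusted p = 0.0165), and its adjusted p was 0.0829 without compressed library 3. GLUL, which makes glutamine, averaged 647 CPM in compressed and 420 CPM in vehicle libraries and was called higher.

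The other rises named by size were KIAA1522, ITPRIP, HIVEP2, RHPN2, HCAR2, RASGEF1B and ARID5B, with log2 fold changes of 0.71 to 0.90 and adjusted p of 0.000794 to 0.0476. ITPRIP binds the receptor through which inositol trisphosphate releases stored calcium, RASGEF1B is an exchange factor for small GTPases, and HCAR2 is a receptor for niacin and ketone bodies. RHPN2 was at 48.7, 46.5, 43.2 and 39.5 CPM in compressed libraries, against 20.7, 25.7, 26.7 and 29.3 CPM in vehicle libraries. Among these 7 genes only RHPN2 kept its call whichever library was left out. The other 6 lost it in 4 to 6 of the 8 fits, with adjusted p of up to 0.231 for ARID5B without compressed library 4. Without vehicle libraries 2 and 3, HIVEP2 (adjusted p = 0.0574) and HCAR2 (adjusted p = 0.0892) were not called.

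CHAC1 had the smallest adjusted p of all. It encodes an enzyme that breaks down glutathione and is a target of ATF4, the transcription factor of the integrated stress response, and it lies on chromosome 1 at 130360510 to 130363332. Its level was 38.3, 29.7, 25.2 and 26.3 CPM in compressed libraries, against 68.4, 66.0, 76.6 and 70.9 CPM in vehicle libraries. Every compressed library was far below every vehicle library (log2 fold change -1.24 ± 0.12, adjusted p = 3.71e-08). TRIB3, a pseudokinase that is another ATF4 target, was at 28.0, 34.2, 36.9 and 31.6 CPM in compressed libraries, against 41.4, 70.9, 69.4 and 39.7 CPM in vehicle libraries. The groups did not overlap (-0.76 ± 0.15, adjusted p = 0.0127), but vehicle libraries 2 and 3, which stood apart, were the high ones. Without those 2 libraries its log2 fold change was -0.30 with an adjusted p of 0.299, and without vehicle library 3 alone the adjusted p was 0.0706. Of 28 ATF4 genes tested, CHAC1 and TRIB3 were lower and 0 higher, where 0.207% of all genes were called lower, with 22 below 0 and a median of -0.11. The lower calls were SESN2, CHAC1 and TRIB3 without vehicle library 1, and CHAC1, NUPR1 and DDIT3 without vehicle libraries 2 and 3. DESeq2 called SESN2 and SLC7A1 besides CHAC1 and TRIB3. ATF4 itself (-0.14) and ASNS (-0.14), asparagine synthetase, were not called.

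The BMP-responsive inhibitor ID3 and the histone genes H2AC6 and H1-3 fell. ID3, which blocks basic helix-loop-helix factors, lies on chromosome 6 at 81422541 to 81424169. It was at 304, 241, 226 and 213 CPM in compressed libraries, against 508, 360, 398 and 390 CPM in vehicle libraries. The highest value in both groups was that of library 1, and the groups did not overlap (-0.75 ± 0.11, adjusted p = 0.000213). H2AC6, a core histone of the H2A family, was at 35.6, 39.4, 31.0 and 30.6 CPM in compressed libraries, against 71.3, 47.6, 56.3 and 50.7 CPM in vehicle libraries (-0.73 ± 0.11, adjusted p = 0.000228). H1-3, a linker histone, was at 242, 211, 197 and 221 CPM in compressed libraries, against 323, 331, 300 and 318 CPM in vehicle libraries. Its groups were tight and apart (-0.55 ± 0.09, adjusted p = 0.00157). Histone genes are near-identical copies of each other, so the split of reads among them is uncertain. HMGB2, a chromatin protein of dividing cells, had a log2 fold change of -0.48 and was called lower.

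NUDT16, a nuclear enzyme that removes RNA caps and inosine phosphates, was at 10.7, 9.49, 10.5 and 10.7 CPM in compressed libraries, against 18.1, 17.3, 15.3 and 18.9 CPM in vehicle libraries. All compressed libraries were lower (-0.75 ± 0.14, adjusted p = 0.0046). The falls named by size also hold the DNA repair genes SHLD1 (-0.82, adjusted p = 0.00971), RHNO1 (-0.68, adjusted p = 0.0338) and XPA (-0.61, adjusted p = 0.0276). XPA was at 8.62, 9.61, 8.74 and 7.09 CPM in compressed libraries, against 16.6, 12.7, 11.2 and 11.6 CPM in vehicle libraries, with vehicle library 1 the highest. The call was lost in 1 of the 8 fits for SHLD1, 6 for RHNO1 and 4 for XPA, with adjusted p of up to 0.0576, 0.188 and 0.174. No list of DNA repair genes was examined, so these 3 are described singly. UNC45B, a myosin chaperone, SERTAD4, ENO3, the muscle enolase, ABHD10, a mitochondrial thioesterase, and C22orf39 had log2 fold changes of -0.89 to -0.54 and adjusted p of 0.0165 to 0.0457, and each lost its call in 3 to 7 of the 8 fits.

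Across the other gene lists few members passed the edgeR test, where 0.393% of all genes were called higher and 0.207% lower. Of 23 growth factors and cytokine ligands FGF1 and LIF were higher and 0 lower, with a median of 0.27 and 18 above 0. Of 29 TGF-beta and BMP genes BMP2 was higher and ID3 lower, and ID1, whose log2 fold change was -1.04, was not called (adjusted p = 0.0778). Of 30 NF-kB and inflammatory genes edgeR called PTGS2, and of 27 immediate early genes KLF4. At an unadjusted edgeR p under 0.05 these 2 lists had 5 and 13 members, where 12.8% of all genes had one. Of the immediate early genes, 14 lay above 0 and 13 below. DESeq2 also called TNFAIP3 of the NF-kB list, NR4A3 of the immediate early list, and ID1. FOS had a log2 fold change of -0.33 (adjusted p = 0.261) and EGR1 one of -0.53, neither called. Of 23 matrix-degrading enzymes and inhibitors edgeR called ADAMTS1 and DESeq2 also HYAL2, while MMP3 (0.04) and MMP13 (-0.23), collagen- and matrix-cleaving proteases of osteoarthritis, did not pass. HYAL2 was also called lower by edgeR without vehicle library 1. Of 32 cartilage matrix genes edgeR called SOX9 and DESeq2 also VCAN. The list median was -0.06 with 12 above 0, and 0.06 with 22 above 0 and 0 called without vehicle libraries 2 and 3. Of 22 NRF2 genes edgeR called TXNRD1 higher, and DESeq2 also called HMOX1, whose log2 fold change in edgeR was -0.46. Of 33 hypoxia and glycolysis genes edgeR called HK2 higher, and DESeq2 also called PFKFB4. In edgeR, KEAP1 was called lower without vehicle library 1, and FTL and PRDX1 were called lower without vehicle libraries 2 and 3. ANKRD37 and SLC2A3 were also called without libraries 2 and 3, where the hypoxia list had 2 higher and 1 lower, with HK2 higher. Without vehicle libraries 2 and 3, PTGS2, ADAMTS1, FGF1, LIF, TXNRD1 and HK2 kept their calls, whereas KLF4, BMP2, SPRY2 and SOX9 did not (adjusted p from 0.0511 to 0.154).

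The remaining functional lists had 0 called members in edgeR. These were YAP-TAZ targets (22 tested), SRF and actin genes (23), cytosolic heat shock genes (21), endoplasmic reticulum chaperones (24), p53 and apoptosis genes (20), calcium and CREB targets (19), hypertrophy and bone markers (14) and mechanosensitive channels and calcium handling (36), along with sterol synthesis, interferon, clock, Notch and WNT, and adhesion genes. Their medians lay between -0.06 and 0.13, and without vehicle libraries 2 and 3 between -0.07 and 0.29 (clock genes). Among the members then called, PDE4B was higher and CCN1 and HSPE1 were lower. At an unadjusted p under 0.05 each had 1 to 8 members, and those that DESeq2 called include PDE4B, EDEM1, SESN2, INSIG1 and BST2. Cell cycle genes, 34 tested, had a median of -0.22 with 31 below 0, and their summed level was 1270 to 1460 CPM in compressed and 1310 to 1720 CPM in vehicle libraries, which overlapped. Without vehicle libraries 2 and 3 the cell cycle median was -0.15 with 22 below 0 and CCNB1 called lower, and without vehicle library 1 it was -0.29 with MCM2 and TYMS called lower. Respiratory chain genes, 24 tested, had a median of -0.24 with 22 below 0. Their sum was 4540 to 5130 CPM in compressed libraries, against 7630 CPM in vehicle library 1 and 4920 to 5150 CPM in the other vehicle libraries. Without vehicle library 1 the respiratory median was -0.03 with 0 called, and without vehicle libraries 2 and 3 it was -0.41 with 9 called lower. Of the 24 respiratory genes, 13 had an unadjusted p under 0.05 and 0 were called by DESeq2, and of the 34 cell cycle genes 5 and 3 (CCNB1, MCM2 and RRM2).

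**Figure D3:**
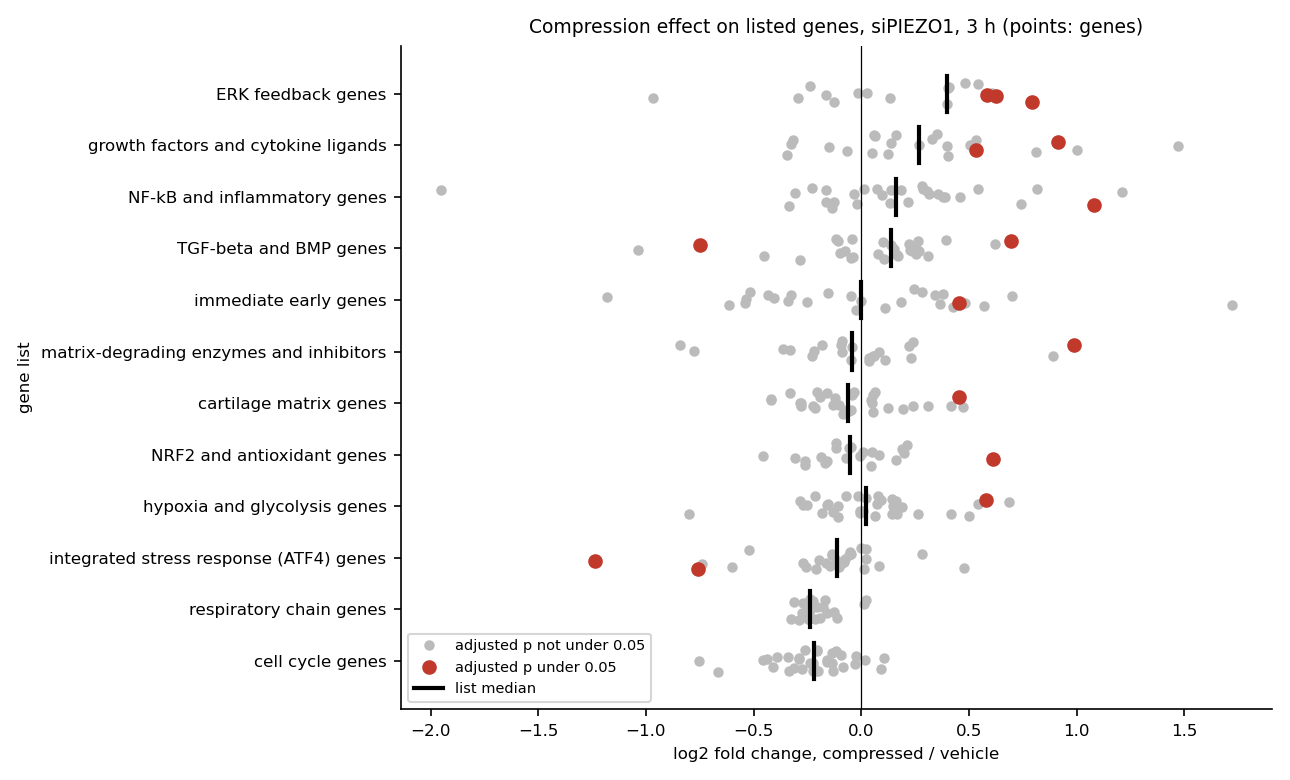
Log2 fold changes (horizontal, compressed over vehicle, siPIEZO1 at 3 h) of the tested members of 12 gene lists (vertical), with called genes in red and a black bar at the list median. ERK feedback genes have a median of 0.40 (0.19 without vehicle library 1) and 3 of 17 called higher, and ATF4 genes a median of -0.11 and 2 of 28 called lower.

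The response was set beside that of cells with the non-targeting siRNA, the closest control for transfection. In siNTC, 167 genes (0.911%) were called, 107 higher (0.584%) and 60 lower (0.327%). Of the 110 genes called in libraries labelled siPIEZO1, 46 were also called in siNTC, all in the same direction, which is 41.8% of the 110 and 27.5% of the 167. A difference between the 2 compression effects was called for 0 of 18330 genes by edgeR and for 1 by DESeq2, with 854 genes (4.66%) at an unadjusted p under 0.05 and a smallest adjusted p of 0.651. PTGS2 shows the likeness: it averaged 215 ± 39.0 CPM in compressed and 102 ± 19.0 CPM in vehicle libraries labelled siPIEZO1, and 263 ± 34.5 and 124 ± 6.56 CPM in siNTC (SD, n = 4 each). Its log2 fold change was 1.08 in both, and the difference was 0.00 ± 0.30. APOLD1 had 1.46 in siPIEZO1 and 1.43 in siNTC, a difference of 0.03 ± 0.33. CHAC1 had -1.24 and -1.63, a difference of 0.39 ± 0.17 (adjusted p = 0.976). With errors of this size and a smallest adjusted p of 0.651, differences of 2-fold and more could also go uncalled. A lack of calls therefore does not show that the responses were equal. NUDT16 and UNC45B were examples of genes called with siPIEZO1 whose siNTC values were near 0 (-0.05 and -0.08). Their differences of -0.71 ± 0.20 and -0.81 ± 0.31 did not pass (adjusted p = 0.862 and 0.976).

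Between siPIEZO1 and siNTC themselves, 1140 genes (6.22%) differed under compression, 625 higher (3.41%) and 515 lower (2.81%) in siPIEZO1, and 929 (5.07%) differed in vehicle, 465 higher (2.54%) and 464 lower (2.53%). The siRNA's target, its other effects and the cultures cannot be told apart in these comparisons.

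**Figure D4:**
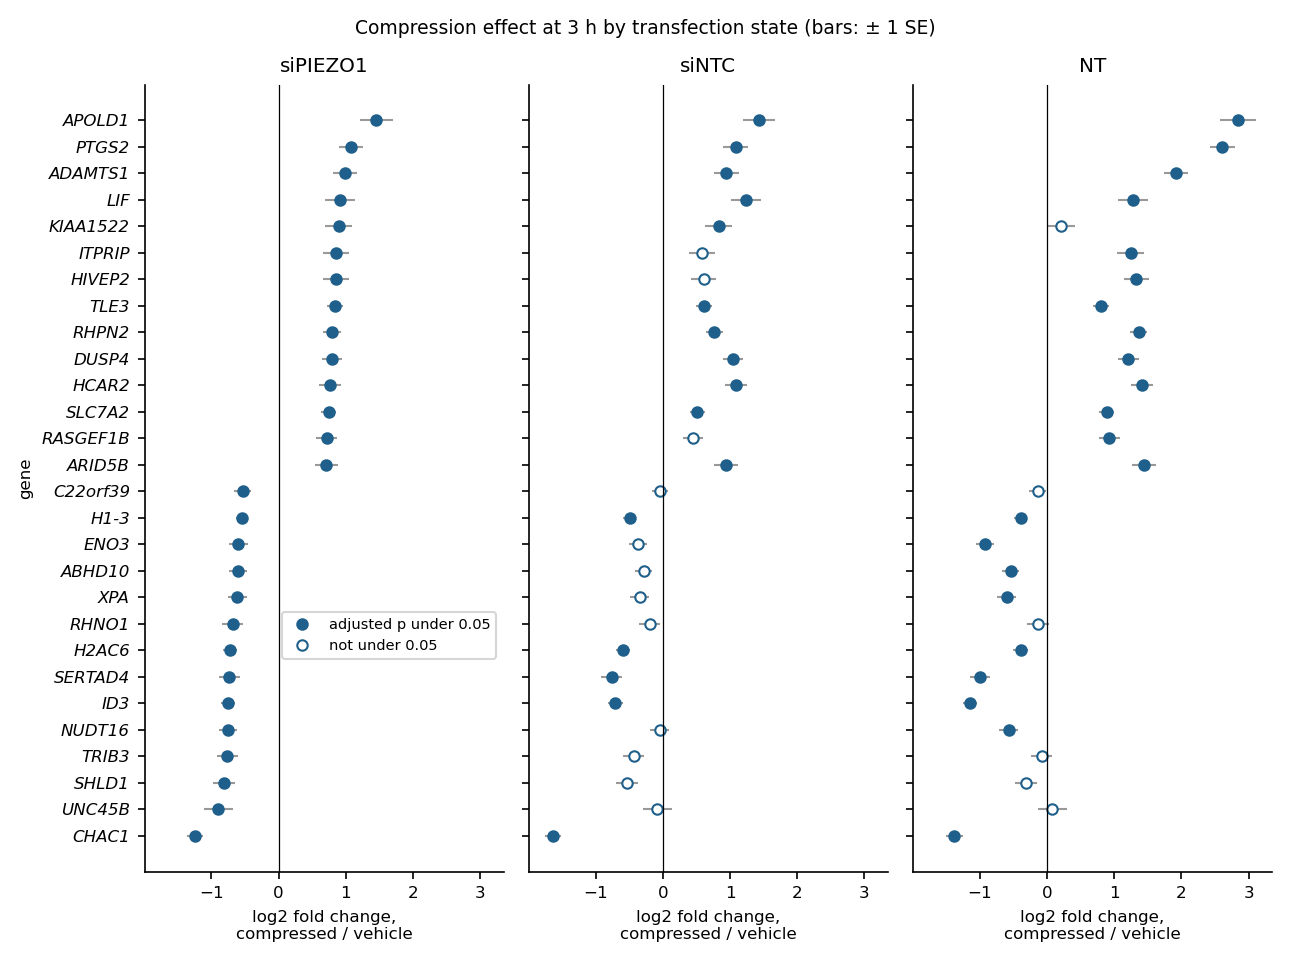
Log2 fold changes of compression over vehicle at 3 h (horizontal, bars 1 SE) for 28 genes (vertical) in siPIEZO1, siNTC and non-transfected (NT) cells, with filled points where the adjusted p was under 0.05. PTGS2 is at 1.08 in siPIEZO1, 1.08 in siNTC and 2.61 in non-transfected cells, and CHAC1 is below -1.2 in all 3.

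Non-transfected cells had a wider response, with 1149 genes (6.27%) called, 766 higher (4.18%) and 383 lower (2.09%). Of the 110 genes, 68 were also called there, again all in the same direction, which is 61.8% of the 110 and 5.92% of the 1149. In all 3 states 42 genes were called, and 38 were called in siPIEZO1 and in neither other state, a count that does not show that they differ between states. The genes higher in siPIEZO1 had a median log2 fold change of 0.65 there, 0.60 in siNTC and 0.79 in non-transfected cells. The lower genes had medians of -0.65, -0.32 and -0.35. Since these genes were selected by the siPIEZO1 test, their size in siPIEZO1 is favoured by the choice.

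The difference of the compression effect from that in non-transfected cells was called for 34 genes (0.185%), 9 with a positive (0.0491%) and 25 with a negative difference (0.136%). PTGS2 averaged 347 ± 128 CPM in compressed and 56.7 ± 10.5 CPM in vehicle non-transfected libraries. The difference of effects was -1.53 ± 0.25 (adjusted p = 0.00173), and the vehicle level in libraries labelled siPIEZO1, 102 CPM, was above that in non-transfected cells. NR4A2, an early orphan nuclear receptor, had log2 fold changes of 0.57 in siPIEZO1, 0.91 in siNTC and 2.55 in non-transfected cells (difference -1.98, adjusted p = 0.000203). The neutrophil chemokines CXCL8 and AMCF-II had differences of -2.68 (adjusted p = 0.0103) and -2.58 (adjusted p = 0.0197). CXCL8 was at 4.37, 4.94, 3.46 and 6.44 CPM in compressed libraries labelled siPIEZO1, against 10.8, 4.91, 3.75 and 4.71 CPM in vehicle ones, and averaged 23.9 CPM in compressed and 4.70 CPM in vehicle non-transfected libraries. SPRY2 (-1.18, adjusted p = 0.00758), KLF4 (-0.66, adjusted p = 0.0423), FOSB, a partner of JUN (-1.56, adjusted p = 0.0305), and RND1 (-1.81, adjusted p = 0.0451), were also called.

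Of the positive differences, HMOX1, the heme oxygenase, had log2 fold changes of -0.46 in siPIEZO1, -0.45 in siNTC and -1.53 in non-transfected cells (difference 1.08, adjusted p = 0.00235). Its mean was 205 CPM in compressed and 282 CPM in vehicle libraries labelled siPIEZO1, and 185 and 535 CPM in non-transfected ones. C3orf18 was flat in siPIEZO1, with 10.3 ± 1.08 and 10.2 ± 1.22 CPM, and lower with compression in non-transfected cells (difference 1.36, adjusted p = 0.000287). In siNTC it was called lower too (-0.77), but siPIEZO1 and siNTC did not pass the test of their difference (0.79 ± 0.20, adjusted p = 0.83). EPHB3 (1.45), an ephrin receptor, BAHD1 (1.30) and ATP8B1 (1.07) completed the genes named by size. The differences of EPHB3, C3orf18, HMOX1 and NR4A2 kept their call whichever of the 16 libraries was left out. Those of BAHD1, ATP8B1, CXCL8, AMCF-II, RND1 and FOSB were lost in 1 to 13 of the 16 fits. For ATP8B1 the adjusted p reached 0.077 without compressed siPIEZO1 library 3, for CXCL8 0.0519 and for FOSB 0.115 without compressed non-transfected library 1. The count of 34 itself ran from 15, without compressed non-transfected library 1, to 76, without siPIEZO1 vehicle library 1. It was also 16 to 19 without siPIEZO1 compressed library 1 or 2, siPIEZO1 vehicle library 4 or non-transfected vehicle library 2, 22 without non-transfected compressed library 2 and 63 without non-transfected vehicle library 4. With 0 genes called for the difference from siNTC, the siRNA's target and transfection itself cannot be told apart in these differences.

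At 9 h the genes called in libraries labelled siPIEZO1 were mostly others. Of 18611 genes tested, 405 (2.18%) were called, 250 higher (1.34%) and 155 lower (0.833%). Of the 110 genes of the 3 h comparison, 9 were among them, which is 8.18% of the 110 and 2.22% of the 405. RUNX1 (0.49 at 3 h and 0.36 at 9 h) and HMGB2 (-0.48 and -0.34) were called in the same direction at both times. The other 7, which include TRIB3, SPINT2, GLRX5, PTPMT1 and RYR2, were called in opposite directions. For TRIB3, SPINT2, GLRX5 and PTPMT1 the 3 h call rests on vehicle libraries 2 and 3. Without them the 3 h log2 fold changes of these genes lay between -0.59 (GLRX5) and -0.25 (SPINT2), with adjusted p of 0.299 to 0.52. The genes higher at 3 h had a median of -0.03 at 9 h, and the lower genes one of 0.0007. PTGS2 averaged 55.7 ± 9.97 CPM in compressed and 54.3 ± 12.3 CPM in vehicle libraries at 9 h, and CHAC1 88.1 ± 12.3 and 85.1 ± 8.33 CPM. TRIB3, lower at 3 h, averaged 99.9 ± 15.0 CPM in compressed and 49.4 ± 8.16 CPM in vehicle libraries at 9 h (1.02, adjusted p = 1.96e-06).

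The difference between the 2 effects, 9 h minus 3 h, was called for 269 of 20202 genes (1.33%), 196 positive (0.97%) and 73 negative (0.361%). It shares the 3 h libraries with the comparison above, so values are given side by side without a count of shared calls. Of the 269 genes, 40 are among the 58 that were high in vehicle libraries 2 and 3 at 3 h. APOLD1 had log2 fold changes of 1.46 at 3 h and -0.67 at 9 h (difference -2.14) and DUSP4 0.79 and -0.37 (-1.17). CHAC1 had -1.24 and 0.05 (1.28), ID3 -0.75 and 0.30 (1.04) and TRIB3 -0.76 and 1.02 (1.77). NIPAL1, a magnesium transporter, had a difference of -1.16 and FBXO32, a muscle ubiquitin ligase, one of -1.14, and the calls of both were lost in 1 and 8 of 16 fits. Large positive differences were those of TK1 (4.54), TRAPPC5 (4.43), STARD10 (4.34) and TMEM47 (3.98). TK1, TRAPPC5 and TMEM47 were at least 2-fold higher in vehicle libraries 2 and 3 than in vehicle libraries 1 and 4 at 3 h. STARD10, at 1.11, 3.07, 4.88 and 2.08 CPM in vehicle libraries 1 to 4, fell short of that gap. TRAPPC5, a subunit of a vesicle tethering complex, was at 9.73, 13.3, 9.26 and 9.41 CPM in compressed libraries, against 10.7, 40.7, 50.8 and 12.0 CPM in vehicle libraries at 3 h, and at 96.9 to 173 and 14.3 to 17.6 CPM at 9 h. Without the 2 vehicle libraries the differences were 3.23 for TK1, 3.09 for TRAPPC5, 3.54 for STARD10 and 1.94 for TMEM47 (adjusted p = 0.21). Without them 126 genes were called, and 177 without compressed library 4 of 3 h.

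**Figure D5:**
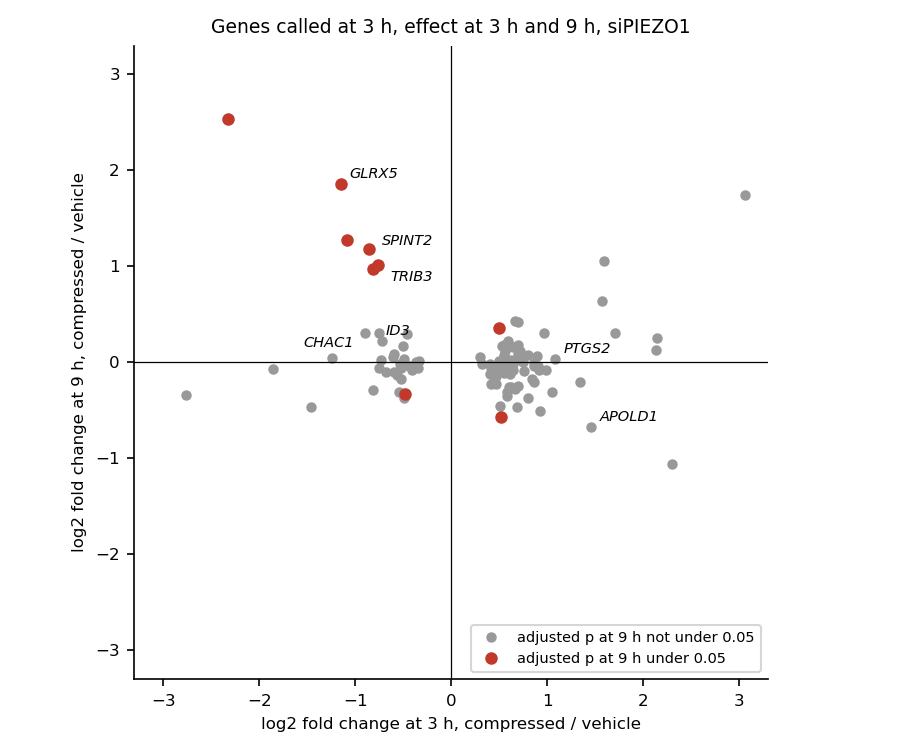
Log2 fold change of compression over vehicle at 9 h (vertical) against 3 h (horizontal) in siPIEZO1 for 108 of the 110 genes called at 3 h, with 2 beyond the axes. Red points were also called at 9 h. APOLD1 lies at 1.46 and -0.67, and TRIB3 at -0.76 and 1.02.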

How the data were processed

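RNA sequencing of primary pig chondrocytes was deposited by the authors as 1 table of raw counts per gene and library. Trim Galore, STAR, HTSeq and the build Sscrofa11.1 are named, per the submitters' processing notes. Tool versions and the strandedness used in counting were not given in the sources used here, so reads of a gene and of an antisense neighbour may be mixed. Per the labels' protocols, these libraries were made from 10 ng of total RNA with a low-input kit.

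The table held 32388 lines for 31907 identifiers, and 481 repeated lines with identical counts were removed. The table gave symbols for 16681 identifiers, a list of gene names for 822 more and RefSeq for 762. Of counts from 1 to 20, 52.33 to 63.22% were even, with no reason given by the labels or notes. Groups and replicate numbers were taken from the titles.

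The tests used edgeR 4.0.16 in R 4.3.3. The 36 libraries of the PIEZO1 experiment at 3 h (9 groups) were scaled by TMM, genes were filtered with filterByExpr (minimum count 10), and all groups entered 1 quasi-likelihood fit, so they share the estimate of spread (common biological coefficient of variation 0.282). Differences between times came from a model of 72 libraries. P-values were adjusted by Benjamini-Hochberg over all genes of a comparison and called under 0.05. The standard error is the size of the log2 fold change divided by the square root of F. CPM divide each count by the library total after TMM scaling. Replicate libraries of siPIEZO1 at 3 h differed by more than sampling noise, with a chi-square per degree of freedom of at least 16.9. It was 203 to 274.2 between vehicle library 1 and each other vehicle library, and 16.95 to 29.69 for all other pairs within a group. The fits were tested on simulated counts.

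Alternatives were DESeq2 1.42.0, its size factors, no filter, a minimum count of 50, a fit of only the libraries compared, replicate number as a block, and leaving out each library. Leaving out siPIEZO1 vehicle libraries 2 and 3 together was added after seeing the data. Genes named are the 15 largest rises and 15 largest falls among called genes with a symbol, no overlap between the groups and at least 5 CPM, up to 4 called members of each of 30 gene lists (732 genes, 32 not in the table), up to 5 called genes in each direction of a difference, and PIEZO1, PIEZO2, TRPV4, COL2A1, ACAN and SOX9. Further genes were picked after their values were seen: KLF13, HMGA2, GLUL, RUNX1, HMGB2, SASH1, ARHGAP31, MMAB, ZBTB8A, the genes that show libraries standing apart, and list members given as not called. Some genes that these rules name are not reported here. The comparison and the lists were chosen with earlier results of these data known.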

Additional observations from a re-analysis of the deposited data

Results flagged for a closer look

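In 11 of 140 groups of 4 libraries examined, 1 library lay far from the other 3, where chance gives about 1 in 20. Of these, 6 were low or high values of siPIEZO1 vehicle library 1 at 3 h: PTGS2 at 73.1 CPM, TXNRD1 at 128 CPM, ACAN at 1110 CPM, FBXO32 at 2.13 CPM and the sum of leukocyte markers at 10.2 CPM were low, and CXCL8 at 10.8 CPM was high. DUSP10 at 15.3 CPM was low in vehicle library 4. Among compressed libraries, BMP2 at 23.5 CPM was low in library 1, TRAPPC5 at 13.3 CPM was high in library 2, and SHLD1 at 7.61 CPM was high and C22orf39 at 11.6 CPM low in library 4.

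The compression effect differed between siPIEZO1 and non-transfected cells by the edgeR test of the difference itself for 13 of the genes named. The log2 difference was -2.68 for CXCL8, -2.58 for AMCF-II, -1.98 for NR4A2, -1.81 for RND1, -1.56 for FOSB, -1.53 for PTGS2, -1.18 for SPRY2 and -0.66 for KLF4. It was 1.45 for EPHB3, 1.36 for C3orf18, 1.30 for BAHD1, 1.08 for HMOX1 and 1.07 for ATP8B1. A difference between the effects in siPIEZO1 and siNTC was called for 0 genes by edgeR. The siRNA's target and transfection itself therefore cannot be told apart in these 13 differences.

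The effect also differed between 9 h and 3 h in siPIEZO1. Among the genes higher at 3 h, the log2 difference (9 h minus 3 h) was -2.14 for APOLD1, -1.17 for DUSP4, -1.16 for NIPAL1, -1.07 for HIVEP2, -1.06 for PTGS2 and -1.02 for TLE3. It was -0.95 for BMP2, -0.94 for DUSP10, -0.90 for HK2, -0.90 for SPRY2, -0.75 for SLC7A2, -0.75 for TXNRD1, -0.73 for RHPN2, -0.62 for SOX9 and -0.56 for FGF1. FBXO32, not called at 3 h, had -1.14. Among the genes lower at 3 h it was 1.77 for TRIB3, 1.28 for CHAC1, 1.19 for UNC45B, 1.04 for ID3, 0.94 for H2AC6, 0.75 for SERTAD4, 0.67 for ABHD10 and 0.66 for XPA. TK1 (4.54), TRAPPC5 (4.43), STARD10 (4.34) and TMEM47 (3.98) were not called at 3 h. These values share the 3 h libraries with the 3 h comparison.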

How the results depend on the processing

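With DESeq2, 275 genes were called for compression in siPIEZO1 at 3 h, 391 in siNTC, 694 in siPIEZO1 at 9 h, 1 for the difference from siNTC and 96 for that from non-transfected cells. Fitted on only the libraries compared, 2 genes for compression in siPIEZO1 at 3 h, 9 for the difference from non-transfected cells and 124 for 9 h minus 3 h were called. Without siPIEZO1 vehicle libraries 2 and 3, an alternative chosen after seeing the data, these 3 counts were 539, 22 and 126. Leaving out 1 library at a time gave 25 to 117 calls in siPIEZO1 at 3 h, 62 (without vehicle 2) to 189 in siNTC, 526 (without vehicle 2) to 1583 in non-transfected cells, 194 (without vehicle 4) to 463 in siPIEZO1 at 9 h, 0 to 1 for the difference from siNTC, 15 to 76 for that from non-transfected cells and 177 to 360 for 9 h minus 3 h. For siPIEZO1 against siNTC it gave 534 (without compressed siNTC 4) to 1146 under compression and 590 (without siNTC vehicle 1) to 1355 in vehicle. Counts that moved by over 1.5 times were, in siNTC, 62, 80 and 93 without vehicle 2, 3 or 4 and 85, 98 and 64 without compressed 2, 3 or 4, in non-transfected cells 659, 526 and 728 without vehicle 1, 2 or 3 and 720 without compressed 4, in siPIEZO1 at 9 h 194 without vehicle 4 and 222 without compressed 2, and for siPIEZO1 against siNTC under compression 717 and 595 without compressed siPIEZO1 1 or 2. Same-numbered compressed and vehicle libraries labelled siPIEZO1 had deviations from their group means correlated at -0.01, 0.26, 0.08 and -0.17. Between same-numbered siPIEZO1 and siNTC libraries the values were 0.02, 0.06, -0.16 and 0.40 under compression. In vehicle they were 0.43, -0.03, 0.18 and 0.14. Libraries that stood apart enter these deviations, so the values cannot show whether the numbers pair libraries. With replicate number as a block, 117 genes were called in siPIEZO1 at 3 h, 161 in siNTC, 1215 in non-transfected cells, 574 in siPIEZO1 at 9 h, 0 and 29 for the differences from siNTC and non-transfected cells, 308 for 9 h minus 3 h, and 1172 and 955 for siPIEZO1 against siNTC under compression and in vehicle. The other counts, with size factors, no filter or a minimum count of 50, stayed within 1.5 times of those reported. Among the alternative values of named genes, 1132 kept their side of the threshold, 245 lost the call, 5 gained it and 0 called values reversed. The other 3 were uncalled values that changed sign and moved by at least 1 standard error. CXCL8 went from -0.33 to 0.10 without vehicle library 1. TMEM47 went from -1.74 to 0.30 and TRPV4 from -0.05 to 0.14 without vehicle libraries 2 and 3. Smaller sign changes of uncalled values, as for EPHB3 and RND1, are counted among the 1132. The effect of depth on these counts was not tested.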
